A study of Mus musculus with 70 samples.

Results

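The proliferation genes of postnatal liver are described here as a set of 44 genes that dividing cells use to copy DNA and to separate chromosomes. The members are given by gene symbol, and each was found once in both count tables, as 44 of the 54532 genes these tables share. Poly(A) RNA was sequenced from the livers of 70 male wild-type C57BL/6 mice. Their dams were fed AIN-93G with 15.8% of calories as fat (Ctr) or D12492 with 60% (HFD) from 5 weeks before mating until delivery. All dams then received chow, litters were set to 6 pups, and the sons were weaned to chow on postnatal day 21, so the diets compared are those of the mothers. Livers were taken at 4 weeks from 16 Ctr and 18 HFD offspring and at 16 weeks from 18 Ctr and 18 HFD offspring, at 6 times of day from ZT1 to ZT21, where ZT0 is lights on. Each diet, age and time had 3 mice, but the Ctr groups of 4 weeks at ZT9 and ZT13 had 2 each, and the labels do not tie a mouse to a litter. Libraries held 14758382 to 20100545 counts. One HFD library of ZT21 titled 4 weeks carries 16 weeks in its age field. It was kept at 4 weeks, and without it 40 members were still called for age and 32 for rhythm at 4 weeks. The 10 hepatocyte markers summed to 85000 to 182000 CPM in every mouse, CPM being counts scaled to an equal library size by TMM, so the tissue label matched its markers.

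A cell that leaves quiescence first loads the Mcm helicase onto replication origins with the help of Cdc6 and Cdt1, and then fires these origins with Cdc45 and the Gins proteins. Copying the genome also needs the sliding clamp Pcna, new nucleotides from ribonucleotide reductase (Rrm1 and Rrm2), Tk1 and Tyms, and new nucleosomes from Chaf1a and Chaf1b. Mitosis follows under cyclin B and Cdk1, with the Aurora and Polo kinases, spindle motors and the anaphase-promoting complex, and its genes are driven late in the cycle by Foxm1 and the MuvB complexes, whereas E2F factors drive the replication genes. Hepatocytes divide often in the growing liver of a young rodent and rarely in the adult one, where they can be polyploid, and division of liver cells is known to be tied to the time of day.

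The start regions of 36 of the 44 members were found in RefSeq (GRCm38.p6) as windows from 250 bases before to 50 bases after the gene start. No window was matched for Mcm4, Gins1, Gins2, Ccna2, Aurkb, Kif20a, Tpx2 and Foxm1. Both strands were searched for the letters of 3 kinds of element: 4 words of the E2F site (TTTCCCGC, TTTCGCGC, TTTGCCGC and TTTGGCGC), the cell cycle homology region or CHR (TTTGAA), and the CCAAT box (CCAAT). Among all 27025 windows of this length, 2.32% held an E2F word, 18.1% a CHR word, 37.9% a CCAAT word and 7.12% both CHR and CCAAT. Of the 18 mitotic members with a window, 13 held both CHR and CCAAT words and 1 held an E2F word. Of the 9 licensing and origin firing members with a window, 6 held an E2F word and 2 held a CHR word. Of the 7 members of replication fork, nucleotide supply and chromatin assembly, all with a window, 0 held an E2F or a CHR word. A match of letters describes the window and is not a mapped binding site. The windows of 4 members are shown, a proliferation marker and an anaphase activator with both CHR and CCAAT words (Mki67 and Cdc20), a helicase subunit with E2F words (Mcm6), and the member whose level moved against most others (Mcm10). Capitals mark every word found on either strand, so that TTCAAA and ATTGG stand for CHR and CCAAT words on the opposite strand, and the first run of capitals of Mcm6 holds 2 E2F words that overlap. All 4 windows are on the minus strand and are written 5′ to 3′ as the gene is read, Mki67 at chr7:135716330-135716629, Cdc20 at chr4:118437294-118437593, Mcm6 at chr1:128359656-128359955 and Mcm10 at chr2:5012742-5013041.
Mki67: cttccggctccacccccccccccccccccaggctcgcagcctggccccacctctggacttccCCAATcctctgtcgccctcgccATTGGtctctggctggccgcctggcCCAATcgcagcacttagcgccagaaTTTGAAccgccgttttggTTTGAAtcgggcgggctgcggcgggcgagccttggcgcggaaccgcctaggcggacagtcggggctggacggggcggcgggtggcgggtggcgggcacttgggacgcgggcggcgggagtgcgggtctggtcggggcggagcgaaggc
Cdc20: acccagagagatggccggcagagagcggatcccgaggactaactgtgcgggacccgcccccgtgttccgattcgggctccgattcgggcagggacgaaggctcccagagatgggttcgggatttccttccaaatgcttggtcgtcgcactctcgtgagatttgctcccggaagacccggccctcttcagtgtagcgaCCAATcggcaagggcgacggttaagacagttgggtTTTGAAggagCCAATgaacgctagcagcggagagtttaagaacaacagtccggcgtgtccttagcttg
Mcm6: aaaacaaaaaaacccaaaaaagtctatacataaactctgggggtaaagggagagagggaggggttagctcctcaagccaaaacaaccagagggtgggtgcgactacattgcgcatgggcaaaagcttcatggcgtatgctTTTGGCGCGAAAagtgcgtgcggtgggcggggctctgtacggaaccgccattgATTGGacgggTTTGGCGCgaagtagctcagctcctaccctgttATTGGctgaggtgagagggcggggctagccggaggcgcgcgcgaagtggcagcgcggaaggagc
Mcm10: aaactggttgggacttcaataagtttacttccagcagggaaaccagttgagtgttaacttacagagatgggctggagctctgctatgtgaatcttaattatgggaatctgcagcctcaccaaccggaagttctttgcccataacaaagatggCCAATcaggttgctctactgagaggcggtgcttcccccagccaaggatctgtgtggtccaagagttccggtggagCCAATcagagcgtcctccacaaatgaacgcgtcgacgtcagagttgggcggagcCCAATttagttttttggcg
The Mki67 window holds 2 CHR and 3 CCAAT words, that of Cdc20 1 CHR and 2 CCAAT words, that of Mcm6 3 E2F and 2 CCAAT words, and that of Mcm10 3 CCAAT words alone.

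Residual expression differed widely between members. All 44 passed the filter, which asked for a nonzero count in 50% or more of the animals. Divided by gene length, the level at 4 weeks was highest for the clamp Pcna, at a median of 11.4 CPM per kb, followed by Mcm10 with 6.95, Tk1 with 4.04 and Rrm2 with 3.35 CPM per kb. The lowest were Cenpf and Cdc6, at 0.0869 and 0.0873 CPM per kb. At 16 weeks the order was led by Mcm10 with 12.2 and Pcna with 10.1 CPM per kb and ended with the checkpoint kinase Bub1 at 0.0157 CPM per kb. In raw terms, the median mouse of 16 weeks had 22 counts of Mki67, 21.5 of Top2a, 24.5 of Cdk1 and 1 of Bub1, and 10 of the 36 mice had no Bub1 count. These counts set how finely any difference in the mitotic genes of adults can be seen.

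The first question was how far the proliferation genes declined between 4 and 16 weeks, whatever the mother ate. Of the 44 members, 36 fell and 4 rose (edgeR quasi-likelihood test, Benjamini-Hochberg over 17384 genes), where 30.7% of all genes tested fell and 31.8% rose, or 62.5% in either direction. An unadjusted p below 0.05 was found for 41 members, against 65.3% of all genes. The median log2 change of the members was -1.26, against 0.00 for all genes tested. The mitotic genes moved furthest. All 9 cyclins, kinases and proteolysis genes fell, with a median of -1.89, and so did all 13 genes of chromosomes, spindle and cytokinesis, with a median of -2.11. The genes of replication moved less, with 8 lower and 1 higher of 12 licensing and origin firing genes (median -0.38) and 4 lower and 2 higher of 7 fork, nucleotide and chromatin assembly genes (median -0.18).

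**Figure D1:**
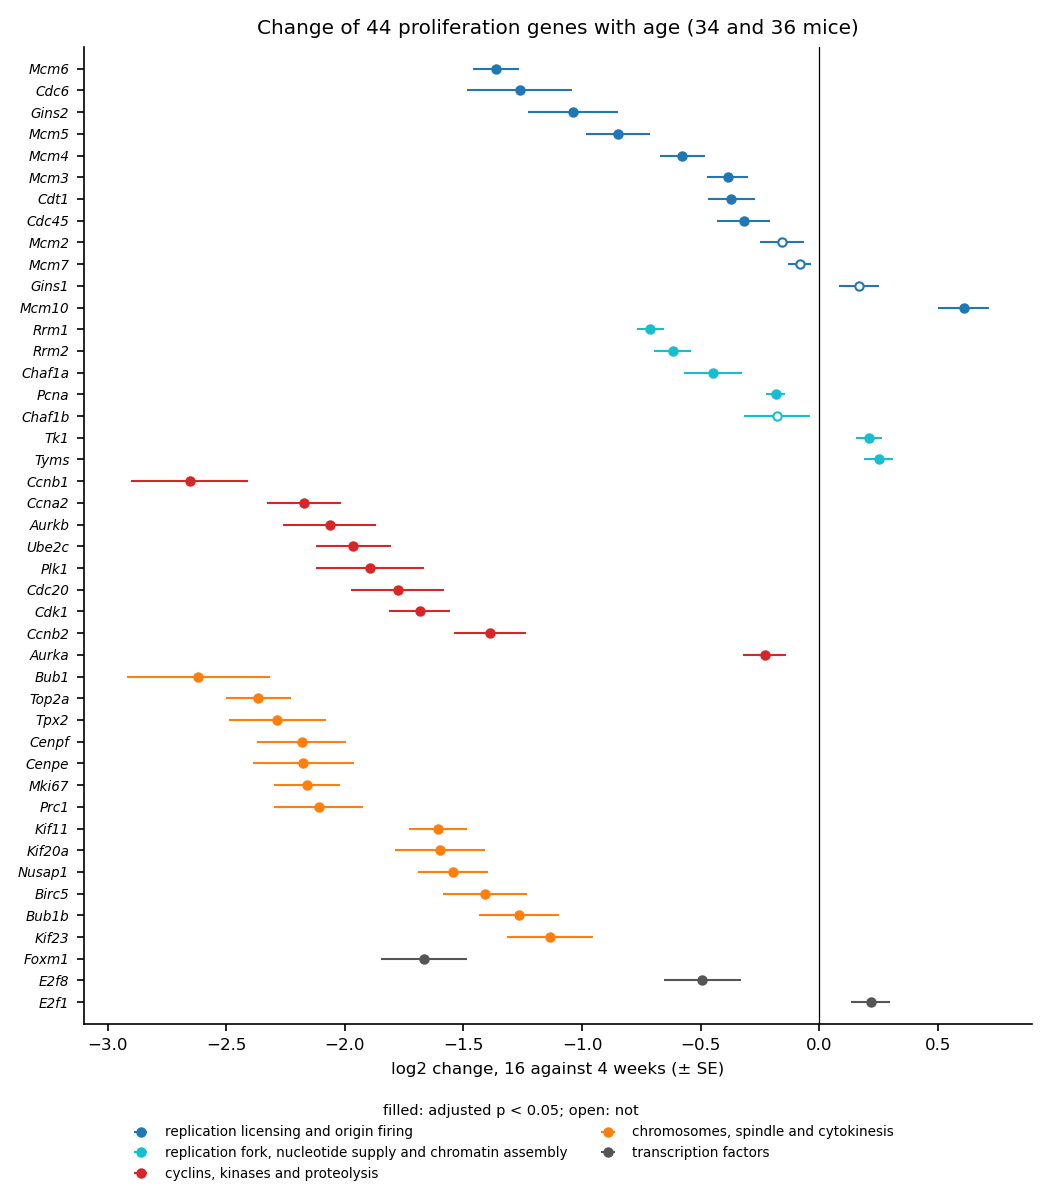
Log2 change from 4 to 16 weeks (x axis, with SE as bars) of each of the 44 proliferation genes (y axis), colored by role, from 34 and 36 mice, with filled points for an adjusted p below 0.05. The mitotic genes lie between -2.66 and -0.23, and Mcm10, Tyms, E2f1 and Tk1 are the filled points to the right of 0.

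Mki67 encodes the nuclear protein Ki-67, the usual marker of cells in cycle. At 4 weeks its lowest, median and highest level was 2.49, 6.37 and 18.9 CPM in Ctr and 3.15, 7.7 and 21.0 CPM in HFD offspring. At 16 weeks the same values were 1.04, 1.64 and 5.33 CPM in Ctr and 0.677, 1.24 and 3.81 CPM in HFD offspring. Of the 36 adult mice 4 reached the lowest mouse of 4 weeks, and 12 of 34 young mice lay at or below the highest adult. The log2 change was -2.16 (SE 0.14, adjusted p = 1.36e-21), or 4.47-fold lower. Top2a, the topoisomerase that untangles sister chromatids, separated the ages most completely of all members. It ranged from 3.07 over 6.54 to 19.5 CPM in Ctr and from 3.7 over 7.07 to 17.7 CPM in HFD offspring at 4 weeks. At 16 weeks it ranged from 0.556 over 1.31 to 3.05 CPM in Ctr and from 0.677 over 1.58 to 3.26 CPM in HFD offspring. A single adult mouse reached the lowest young one, and the log2 change was -2.37 (SE 0.14, adjusted p = 4.23e-24). No member separated the ages without any overlap, as 0.127% of all genes tested did in the falling and 0.679% in the rising direction.

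The largest falls were those of Ccnb1, the cyclin B that starts mitosis with Cdk1, and of Bub1, a kinase of the spindle checkpoint. Ccnb1 lay at 0, 1.86 and 10.1 CPM (lowest, median, highest) in Ctr and at 0.404, 1.54 and 8.24 CPM in HFD offspring at 4 weeks, and at 0, 0.226 and 2.17 CPM and 0, 0.236 and 1.21 CPM at 16 weeks. Its log2 change was -2.66 (SE 0.25), 6.3-fold, and that of Bub1 was -2.62 (SE 0.30), although 20 of 34 young mice lay at or below the highest adult for Ccnb1. The S phase and G2 cyclin Ccna2 fell by 2.17 on the log2 scale (SE 0.16), from medians of 3.48 (0.712 to 10.5) and 2.92 (0.95 to 8.1) CPM to 0.579 (0.25 to 2.28) and 0.573 (0.133 to 1.33) CPM in Ctr and HFD offspring. Cdk1, their kinase partner, went from 5.3 (1.25 to 11.9) and 4.52 (1.55 to 9.29) CPM to 1.41 (0.62 to 2.6) and 1.63 (0.306 to 2.78) CPM, a log2 change of -1.68 (SE 0.13). For Cdk1, 4 of 34 young mice lay within the adult range, while 23 of 36 adults lay at or above the lowest young mouse. Aurka, the centrosomal Aurora kinase, was the exception among mitotic genes, with a log2 change of only -0.23 (SE 0.09, adjusted p = 0.0242) and 35 of 36 adults inside the young range or above it.

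Among the other mitotic genes, Plk1, the Polo kinase, had medians of 1.16 (0.131 to 4.74) CPM in Ctr and 0.93 (0.183 to 2.48) CPM in HFD offspring at 4 weeks, and of 0.197 (0.0536 to 1.05) and 0.252 (0 to 0.689) CPM at 16 weeks. Its log2 change was -1.89 (SE 0.23). Birc5, the survivin subunit of the chromosomal passenger complex, had medians of 1.74 (0.547 to 5.74) and 1.52 (0.255 to 3.31) CPM in the young and of 0.693 (0.065 to 1.67) and 0.642 (0.0665 to 1.27) CPM in the adult Ctr and HFD offspring. Its change was -1.41 (SE 0.18), and 31 of 36 adults lay at or above the lowest young mouse, so the ages overlapped broadly for these low genes. Aurkb, the Aurora kinase of that complex, changed by -2.06, Cdc20 and Ube2c, the activator and the ubiquitin-conjugating enzyme of the anaphase-promoting complex, by -1.78 and -1.96, and Ccnb2, the second cyclin B, by -1.39. The spindle assembly factor Tpx2 changed by -2.28, the kinetochore proteins Cenpf and Cenpe both by -2.18, and the spindle midzone protein Prc1 by -2.11. The motors Kif11, Kif20a and Kif23 changed by -1.61, -1.60 and -1.13, the microtubule binder Nusap1 by -1.54 and the checkpoint kinase Bub1b by -1.27.

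In replication the members split. Mcm6, a subunit of the replicative helicase, fell most, from medians of 13.6 (8.05 to 20.2) CPM in Ctr and 11.5 (8.81 to 15.2) CPM in HFD offspring to 5.18 (2.7 to 8.65) and 5.21 (2.46 to 9.02) CPM. Its log2 change was -1.36 (SE 0.10, adjusted p = 4.74e-20), and 3 of 36 adults reached the lowest young mouse. Mcm2, another subunit of the same ring, had medians of 4.72 (1.84 to 7.13) and 4.4 (1.88 to 6.27) CPM at 4 weeks and of 3.69 (1.82 to 5.68) and 3.82 (2.68 to 6.3) CPM at 16 weeks, and did not pass the test (log2 change -0.16, SE 0.09, adjusted p = 0.137). Subunits of one hexameric helicase thus had unequal changes, with Mcm5 at -0.85, Mcm4 at -0.58, Mcm3 at -0.39 and Mcm7, which was not called, at -0.08. The exons of Mcm7 overlap those of neighbouring genes, and reads there could be split. The loaders Cdc6 and Cdt1 changed by -1.26 and -0.37, and the origin firing factors Gins2 and Cdc45 by -1.04 and -0.32, whereas Gins1 was not called at 0.17.

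Mcm10, which joins the helicase when origins fire, moved the other way. It ranged over 21.3, 50.9 and 148 CPM in Ctr and 16.4, 56.6 and 133 CPM in HFD offspring at 4 weeks, and over 52.6, 93.8 and 180 CPM and 51, 98 and 169 CPM at 16 weeks. The ages overlapped, as all 36 adults lay above the lowest young mouse and all 34 young mice below the highest adult. The log2 change of Mcm10 was 0.61 (SE 0.11, adjusted p = 1.16e-06). Per length it stood far above the other helicase factors at both ages.

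For nucleotide supply, Rrm2, the S phase subunit of ribonucleotide reductase, had medians of 9.65 (5.24 to 16.4) CPM in Ctr and 9.13 (5.74 to 12.6) CPM in HFD offspring at 4 weeks and of 6.37 (3.22 to 11.4) and 6.29 (3.2 to 12.8) CPM at 16 weeks, a log2 change of -0.62 (SE 0.08). Its partner Rrm1 changed by -0.71 (SE 0.06). Tyms, thymidylate synthase, rose from 5.98 (2.87 to 8.06) and 5.91 (3.75 to 7.6) CPM to 6.49 (4.66 to 8.55) and 7.15 (5.85 to 9.77) CPM, a log2 change of 0.25 (SE 0.06, adjusted p = 0.000296). Tk1, thymidine kinase, rose by a similar 0.21, and its exons share bases with those of Afmid. Pcna had medians of 27.3 (18.4 to 32.4) and 27.5 (21.9 to 36.1) CPM in the young and of 23.2 (20.3 to 30) and 25 (21.2 to 30.3) CPM in the adult, and fell by only 0.18 on the log2 scale (SE 0.04, adjusted p = 5.98e-05). The chromatin assembly subunit Chaf1a changed by -0.45, and Chaf1b was not called at -0.18.

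The 3 transcription factors did not move as one. Foxm1, the activator of mitotic genes, fell from medians of 1.48 (0.657 to 4.42) and 1.47 (0.202 to 3.69) CPM in Ctr and HFD offspring to 0.439 (0.065 to 1.36) and 0.471 (0.0664 to 1.15) CPM, a log2 change of -1.67 (SE 0.18). E2f1, an activator of replication genes, had medians of 4.49 (1.9 to 6.43) and 3.5 (2.36 to 5.59) CPM at 4 weeks and of 4.22 (3.12 to 7.46) and 4.47 (2.86 to 6.3) CPM at 16 weeks, and rose by 0.22 (SE 0.08, adjusted p = 0.0182). E2f8, an atypical E2F that represses such genes and takes part in polyploidy, fell from 6.36 (3.11 to 20.1) and 5.47 (2.75 to 12.4) CPM to 3.82 (1.56 to 13.5) and 3.61 (1.98 to 14.7) CPM, a log2 change of -0.49 (SE 0.16, adjusted p = 0.00629). The calls of E2f1 and E2f8 were lost when the replicates numbered 2 were left out, that of E2f8 also without those numbered 3. Among the other members, the age call of Aurka was lost with no filter on low counts and without the replicates numbered 2 or 3, that of Cdc45 with no filter and without those numbered 1 or 3, and that of Chaf1a without those numbered 3.

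The summed level of the 22 mitotic genes shows the decline in single mice. It was 27.3, 56.5 and 169 CPM (lowest, median, highest) in the 34 mice of 4 weeks and 10.7, 16.2 and 45.7 CPM in the 36 mice of 16 weeks, a ratio of medians of 3.48. At each of the 6 times of day, no adult mouse reached the lowest young mouse of the same time, but the ratio of medians varied from 7.04 at ZT5 to 2.28 at ZT21. The sum of the 18 replication genes other than Mcm10 had medians of 134 and 110 CPM, and the ratio by time ran from 1.42 at ZT5 to 0.977 at ZT13, where all 6 adults lay at or above the lowest young mouse. A pair of adult mice stood out in the mitotic sum, a Ctr mouse of ZT5 at 45.7 CPM and an HFD mouse of ZT9 at 35 CPM, where the other 34 lay between 10.7 and 28.9 CPM. Without them 40 members were still called for age.

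**Figure D2:**
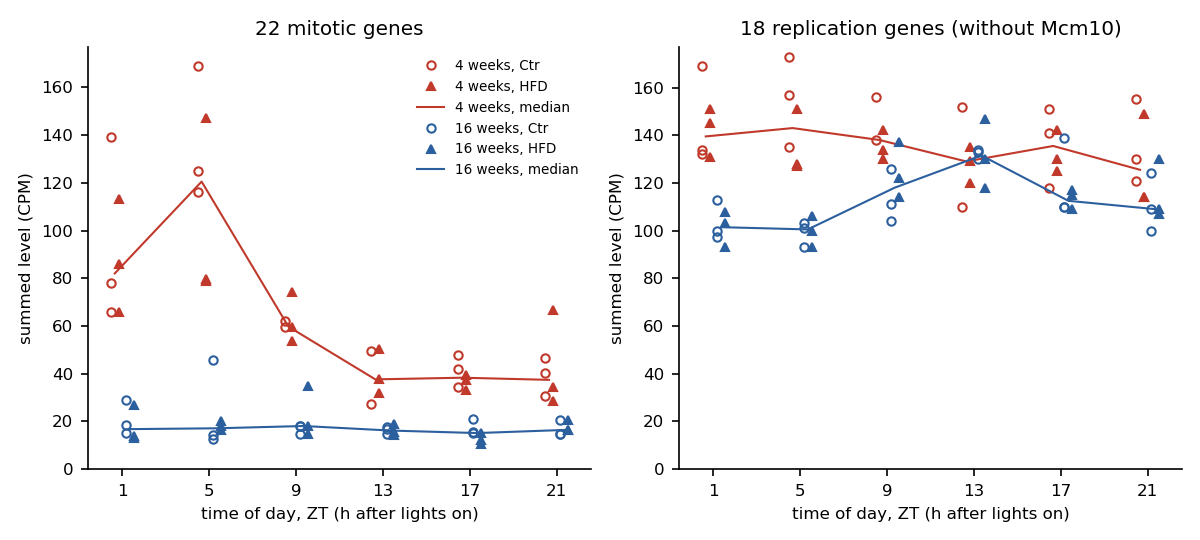
Summed level in CPM (y axis) against time of day (ZT, hours after lights on, x axis) for the 22 mitotic genes (left) and the 18 replication genes without Mcm10 (right), with one point for each of the 70 mice and lines through the medians. At 4 weeks the mitotic sum has a median of 120 CPM at ZT5 and 37.4 CPM at ZT21, while at 16 weeks the medians stay between 15.1 and 18 CPM.

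Age was also the set of libraries, since the mice of the ages were counted in separate tables, and the labels do not say whether they were sequenced together, so age and library set cannot be told apart. In bulk liver, moreover, fewer dividing cells and less RNA of these genes per cell cannot be told apart. Markers of several non-parenchymal cells moved with age as well. The counts of all marker lists stand beside the 30.7% of all genes tested that fell and the 31.8% that rose. Of the macrophage markers 11 of 12 fell, with summed medians of 665 and 689 CPM in Ctr and HFD offspring at 4 weeks and 394 and 405 CPM at 16 weeks. Endothelial markers fell for 9 and rose for 1 of 10 (311 and 299 against 194 and 209 CPM), and stellate markers fell for 7 of 10 (461 and 539 against 250 and 266 CPM). Of the hepatocyte markers 4 fell and 5 rose of 10, of the erythroid markers 4 and 2 of 9 tested, of the cholangiocyte markers 4 and 1 of 8, of the lymphocyte markers 3 and 2 of 12 and of the neutrophil markers 4 and 2 of 8 tested. The macrophage sums ranged from 374 to 831 and 390 to 900 CPM in Ctr and HFD offspring at 4 weeks and from 339 to 523 and 229 to 608 CPM at 16 weeks. The endothelial sums ranged from 237 to 358 and 228 to 366 CPM and from 159 to 264 and 148 to 292 CPM, and the stellate sums from 351 to 632 and 340 to 671 CPM and from 194 to 410 and 216 to 515 CPM. Across all groups the ranges were 199 to 1150 CPM for erythroid, 2.36 to 66 CPM for neutrophil, 3.97 to 16.4 CPM for lymphocyte and 23.3 to 129 CPM for cholangiocyte markers, and 1 erythroid and 2 neutrophil markers stayed below 0.5 CPM in every mouse. The part of these cells in the decline of the members was not tested. The strand setting of the counting is not given in the sources used here, and the exons of Kif20a, Chaf1a, Gins2, Prc1, Ccna2, Ube2c, Nusap1, Plk1, Cdc20, Tk1, Mcm7, Cdc45 and E2f8 share bases with a gene on the opposite strand, so their levels are less certain.

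The second question was whether the residual proliferation genes follow the time of day. At 4 weeks they did in a sharp way. A 24 h rhythm was called for 32 of 44 members, against 29.9% of the 16776 genes tested, 33 had an unadjusted p below 0.05, against 40.3%, and 25 of the members had a fitted peak from 3 to 7 h after lights on, against 6.31% of all genes. Among the mitotic genes 21 of 22 were called, all but Kif23 (adjusted p = 0.126), and among the 19 replication genes 10 were called. The 12 called genes of chromosomes, spindle and cytokinesis peaked between 3.71 and 5.37 h. The window from 3 to 7 h was not among the tests set beforehand and encloses most called peaks of the members themselves. Its share beside that of all genes is therefore a description.

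Mki67 at 4 weeks had a mean of 13.6 CPM (SD 3.94, 6 mice) at ZT1 and 15.9 CPM (SD 4.94, 6 mice) at ZT5, and then 7.0, 5.43, 4.5 and 5.4 CPM at ZT9, ZT13, ZT17 and ZT21. Every mouse of ZT1 and ZT5 was at 7.64 CPM or above, and of the later mice only those up to 8.78 CPM at ZT9, 7.76 CPM at ZT13 and 10.4 CPM at ZT21 reached into that range. Its amplitude, which is the log2 distance from the mean to the peak of the fitted curve, was 0.955 (SE 0.12) with a peak at 3.88 h (adjusted p = 1.59e-07). Cdc20 had the lowest p of all members, with 2.98 to 11.9 CPM at ZT5 and 0.404 to 1.8 CPM at ZT21, so that no mouse of ZT21 reached the lowest of ZT5. Its amplitude was 1.36 (SE 0.16) with a peak at 4.47 h, a 6.62-fold difference from trough to peak (adjusted p = 4.05e-08). The largest amplitude was that of Ccnb1, at 1.47 (SE 0.20) with a peak at 4.74 h and 7.65-fold from trough to peak. Kif20a, a motor of cytokinesis, had an amplitude of 1.18 with a peak at 4.36 h. Foxm1 had one of 0.828 (SE 0.15) with a peak at 4.66 h, close to that of the genes it is known to drive.

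Aurka was earlier than the rest of the mitotic genes, with a peak at 1.28 h and an amplitude of 0.405. In replication the peaks were spread. Gins2, Cdt1, Mcm5 and Chaf1a peaked between 4.77 and 6.16 h, Mcm7, Mcm2 and Mcm3 between 0.886 and 2.54 h, Chaf1b at 7.18 h and Mcm10 at 9.62 h. Mcm10 had means of 45.9, 78.1, 101, 106, 46.9 and 35.3 CPM from ZT1 to ZT21, with all 5 mice of ZT13 at 90.6 CPM or above and all 6 of ZT21 at 48.7 CPM or below. Tk1 peaked at 16.7 h with an amplitude of 0.239. Rrm2, Mcm6, Mcm4, Pcna, Rrm1, Tyms, Cdc45, Gins1, Cdc6, E2f1 and E2f8 were not called, with amplitudes from 0.0865 (Pcna) to 0.61 (Cdc6). With ZT as a factor Cdc45 and E2f8 were called and Mcm2 and Mcm5 were not, and E2f8 was also called without the mice of ZT5. Leaving out all mice of ZT5 left 26 members called, and leaving out the replicates of one number left 25 to 28. Most calls lost were of replication genes, Aurka, Birc5 and Bub1b being the mitotic ones.

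**Figure D3:**
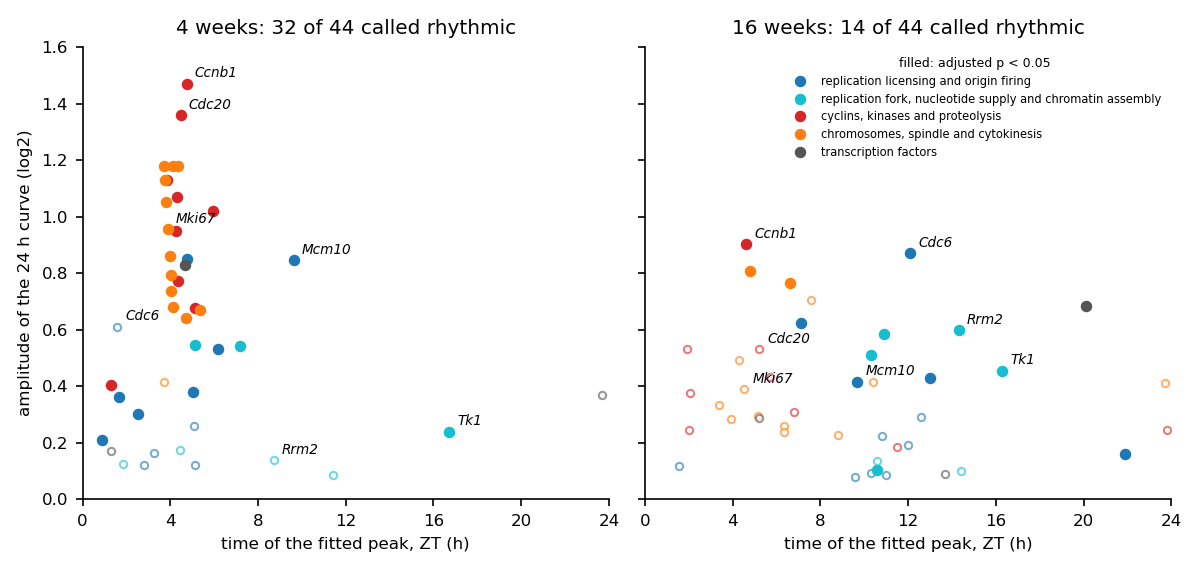
Amplitude on the log2 scale (y axis) against fitted peak time (ZT in hours, x axis) of the 44 proliferation genes at 4 weeks (left) and 16 weeks (right), colored by role and filled where the adjusted p is below 0.05. The 25 called members with a peak between 3 and 7 h form a column at 4 weeks, and 3 called members lie in that window at 16 weeks.

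At 16 weeks a 24 h rhythm was called for 14 of 44 members, against 34.8% of 17409 genes, 17 had an unadjusted p below 0.05, against 43.7%, and 3 of these peaked from 3 to 7 h, against 5.81% of all genes. These 3 were the mitotic genes Cenpf, Tpx2 and Ccnb1, and the other 19 mitotic genes did not pass in edgeR, Mki67 having an amplitude of 0.389 (SE 0.16, adjusted p = 0.131). DESeq2 called 16 members, with Ccnb2 and Aurka in addition, and scaling by library totals alone 15, with Ccnb2. All 3 calls were lost when the Ctr mouse of ZT5 and the HFD mouse of ZT9 with the highest mitotic sums were left out, an alternative chosen after seeing the data, and Aurka and Nusap1 were then called. The remaining 11 calls were of replication genes and E2f8. Tk1 was the clearest, with means of 20.4, 18.3, 21.4, 31.4, 33.6 and 26.8 CPM from ZT1 to ZT21, an amplitude of 0.455 (SE 0.05) and a peak at 16.3 h (adjusted p = 1.04e-08). For Tk1 the 6 mice of ZT17 had 29.0 CPM or more and the 6 of ZT5 had 22.1 CPM or less. Cdt1 peaked at 7.11 h with an amplitude of 0.623 (SE 0.09, adjusted p = 7.29e-06), E2f8 at 20.1 h with 0.683, Chaf1a and Chaf1b at 10.3 and 10.9 h with 0.509 and 0.585, and Mcm6 at 13 h with 0.428. Mcm10 peaked at 9.67 h with 0.416, near its time at 4 weeks. Pcna and Mcm7 had small amplitudes of 0.102 and 0.16. Without the replicates numbered 1, 2 or 3 the count was 7, 8 or 8, and the calls of Pcna, Ccnb1, Cenpf and Tpx2 were lost each time. Those of Cdc6 and Mcm7 were lost without replicate 1 or 2, that of Chaf1a without replicate 1 or 3 and those of Chaf1b and Mcm6 without replicate 3. Leaving out ZT9 also lost Chaf1b and E2f8, leaving out ZT13 lost Mcm6 and Cdc6, and the GC slope from the age mean lost E2f8. Tk1, Rrm2, Cdt1 and Mcm10 kept their calls under all 19 alternatives run.

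A difference of rhythm between the ages was tested directly. It was called for 2 of 44 members, against 0.282% of 17384 genes, and 26 had an unadjusted p below 0.05, against 13.7% of all genes. Rrm2 had the lowest p (1.18e-05, adjusted p = 0.0184). At 4 weeks its means stayed between 8.28 and 11.3 CPM at all times. At 16 weeks they went from 4.1 CPM (SD 1.03) at ZT1 and 4.6 CPM (SD 1.28) at ZT5 to 10.6 CPM (SD 2.11) at ZT13, with a peak at 14.3 h. At ZT13 the adult mice, at 6.63 to 12.8 CPM, overlapped with the young ones, at 8.24 to 16.4 CPM, whereas at ZT1 the adults, at 3.2 to 5.7 CPM, lay below the young ones, at 5.74 to 14.7 CPM. Cdc6, the helicase loader, was the other call (adjusted p = 0.0461), with means of 0.462 CPM at ZT13 and 0.09 CPM at ZT5 in adults and 0.362 and 0.452 CPM at the same times in the young, on 3 counts in the median adult. The call of Cdc6 was lost under most alternatives and that of Rrm2 without the replicates of any one number and without the mice of ZT1, ZT5, ZT9 or ZT13. None of the 22 mitotic genes was called for a difference of rhythm by edgeR, although 13 had an unadjusted p below 0.05, the lowest adjusted p being that of Cdk1 (0.0809). Cdk1 was called by DESeq2, with no filter on low counts, with the GC covariate and without the mice of ZT17. Without the pair of adult mice with the highest mitotic sums, Cdc20 and Ube2c were called.

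**Figure D4:**
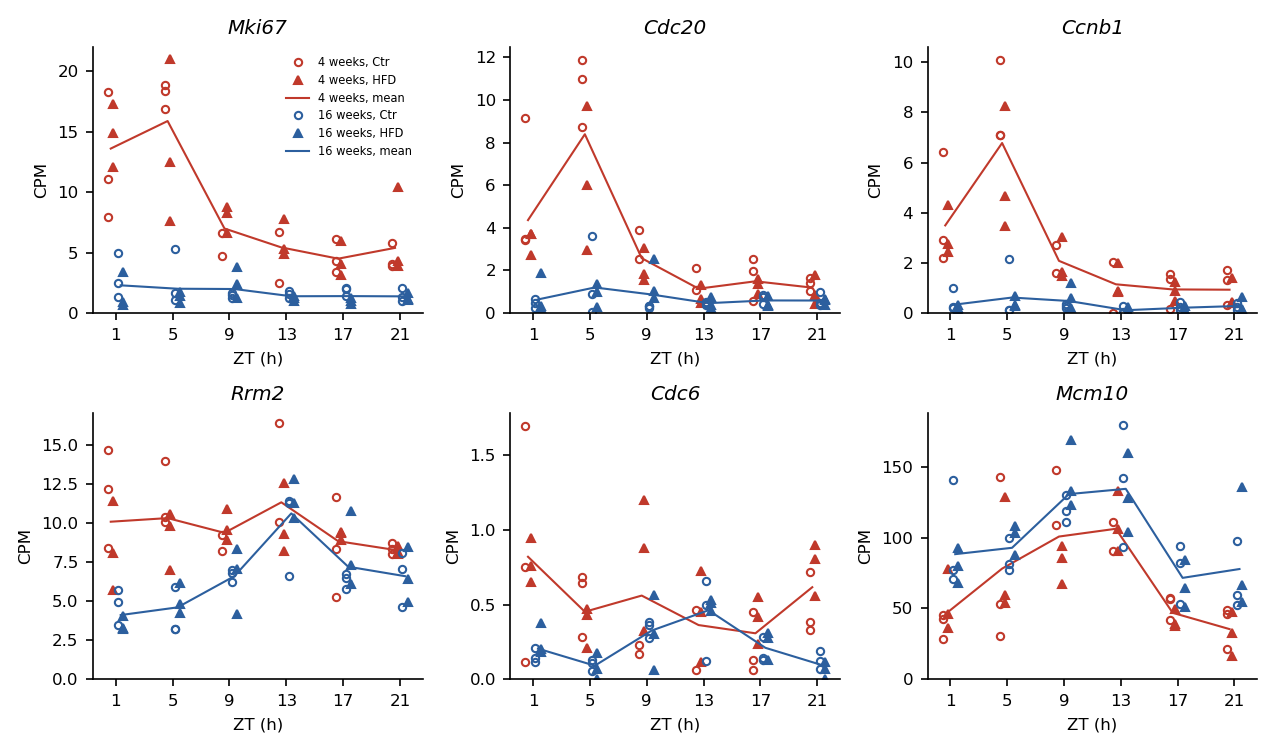
Level in CPM (y axes) of 6 members against time of day (ZT in hours, x axes) in each mouse of 4 weeks (red) and 16 weeks (blue), with open circles for Ctr, triangles for HFD and lines through the means. Mki67, Cdc20 and Ccnb1 are highest at ZT5 at 4 weeks, Rrm2 and Cdc6 at 16 weeks have their highest means at ZT13, and Mcm10 is higher at 16 weeks.

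The third question was whether maternal HFD changed the proliferation genes of the offspring. At 4 weeks none of the 44 members was called by edgeR or by DESeq2, against 0.00596% of 16776 genes, and 6 had an unadjusted p below 0.05 in edgeR, against 9.42% of all genes. The median log2 difference, HFD against Ctr, was -0.12 over the members and 0.005 over all genes tested. Erythroid markers had, in Ctr and HFD offspring, summed medians of 578 and 399 CPM, with a median log2 difference of -0.46 and 5 of 9 at an unadjusted p below 0.05. None of the 81 cell type markers tested was called by edgeR, 14 had an unadjusted p below 0.05, and DESeq2 called 1 erythroid marker. Their part in the differences of the members was not tested. Cdc20 had the lowest p, with lowest, median and highest levels of 0.59, 2.55 and 11.9 CPM in Ctr and 0.404, 1.7 and 9.72 CPM in HFD offspring. The diets overlapped over nearly their whole range, and the log2 difference was -0.63 (SE 0.20, adjusted p = 0.316), called only when no filter on low counts was set. Kif23, which bundles the midzone in cytokinesis, had the largest positive difference, at 0.77 (SE 0.25, adjusted p = 0.343), from medians of 1.22 (0.328 to 2.32) CPM in Ctr and 1.52 (0.471 to 4.57) CPM in HFD offspring. E2f1 had -0.38 (SE 0.14, adjusted p = 0.393). Mki67 and Top2a differed by 0.15 (SE 0.16) and 0.09 (SE 0.16). The mitotic sum had a median of 54.5 CPM (27.3 to 169) in Ctr and 56.6 CPM (28.6 to 147) in HFD offspring.

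At 16 weeks again none of the 44 members was called by edgeR or DESeq2, against 0.121% of 17409 genes, and 2 had an unadjusted p below 0.05 in edgeR, against 11.6%. Cdc45, which opens the helicase at origins, ranged over 0.208, 0.935 and 1.8 CPM in Ctr and 0.446, 1.45 and 2.34 CPM in HFD offspring. The ranges overlapped, and the log2 difference was 0.45 (SE 0.16, adjusted p = 0.254). Tyms differed by 0.15 (SE 0.07, adjusted p = 0.374), Mki67 by -0.42 (SE 0.23, adjusted p = 0.495) and Prc1, the lowest, by -0.55 (SE 0.33, adjusted p = 0.566). The mitotic sum had medians of 16.1 CPM (12.5 to 45.7) and 16.2 CPM (10.7 to 35). Of 76 cell type markers none was called by edgeR or DESeq2 at this age, and 11 had an unadjusted p below 0.05 in edgeR. Among these were 4 of 8 erythroid markers, a list with a median log2 difference of 0.14. For the interaction of diet and age, 6 of 9 erythroid markers had an unadjusted p below 0.05, with a median of 0.74. Of 79 markers edgeR called 0 for this interaction and DESeq2 called 2. The difference of the diet effect between the ages was called for none of the members by edgeR or DESeq2, against 0.178% of all genes (0.046% with a diet effect more positive at 16 weeks), and 4 had an unadjusted p below 0.05, against 10.9%, Kif23 (-1.03, SE 0.37, adjusted p = 0.247), Gins1 (0.41), Cdc20 (0.89) and E2f1 (0.36). A rhythm that differed between the diets was called for no member at either age by edgeR or DESeq2, none had an unadjusted p below 0.05 in edgeR, against 2.27% and 11.9% of all genes at 4 and 16 weeks, and the lowest p was 0.169 for Bub1b at 4 weeks and 0.158 for Bub1 at 16 weeks.

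**Figure D5:**
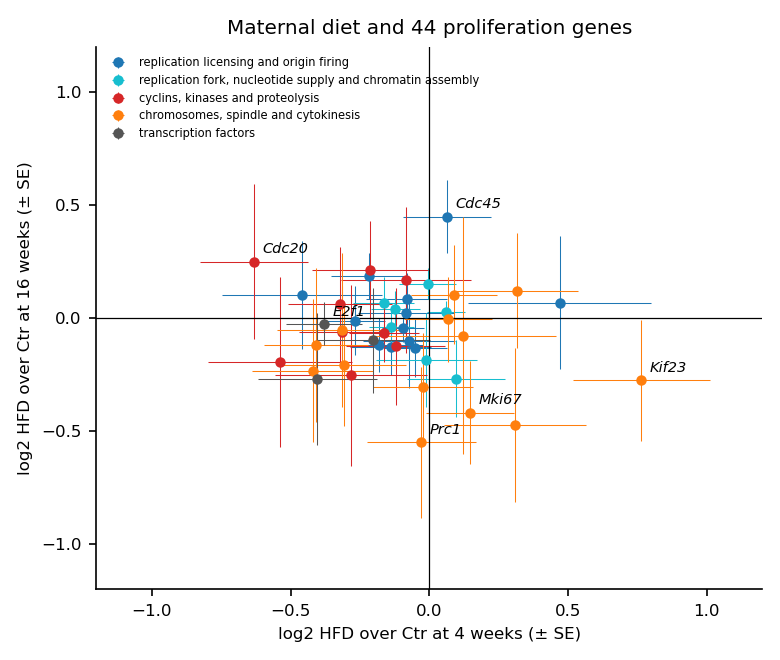
Log2 difference of HFD against Ctr offspring at 16 weeks (y axis) against that at 4 weeks (x axis) for the 44 proliferation genes, with SE as bars and colors by role. No member was called at either age, and the named points include Cdc20 at -0.63 and Kif23 at 0.77 at 4 weeks.

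Other genes of the cell cycle were taken from lists that hold none of the members, and their counts stand beside the 30.7% of all genes that fell and the 31.8% that rose with age. All 37 other mitosis and checkpoint genes tested were called, 32 lower and 5 higher. The spindle protein Hmmr fell by 2.77 on the log2 scale, the checkpoint kinase Ttk by 2.41, the condensin subunit Ncapg by 2.40 and the microtubule protein Ckap2 by 2.34, while the kinetochore subunit Spc24 rose by 1.24, Ccnf by 0.43, Cks2 by 0.39 and the securin Pttg1 by 0.31. Of 7 cytokinesis genes 6 fell, led by Cep55 (-2.50), Racgap1 (-2.04), the anillin gene Anln (-1.79) and Kif20b (-1.68). Of 34 other replication genes 13 fell, led by Clspn (-1.58), the hemimethylation reader Uhrf1 (-1.09), Pole2 (-1.01) and Asf1b (-0.75), and 10 rose, Fen1, Rpa3 (0.59), Rfc3 (0.42) and Pold2 (0.31) with the largest values, and the median of the list was -0.07. Fen1, a nuclease of lagging strand synthesis, had medians of 0 CPM (0 to 0.245) at 4 weeks and 0.316 CPM (0 to 0.94) at 16 weeks, passed the filter on low counts only through the adult mice, and shares exon bases with Gm10143 and Tmem258 on the opposite strand.

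The G1, inhibitor and E2F lists had median log2 changes between -0.14 and -0.07. Of 10 G1 cyclins and kinases 4 fell, namely Ccne2 (-1.31), Ccnd1 (-0.75), Ccne1 (-0.745) and Myc (-0.41), and Ccnd3 (0.28) and Cdk4 (0.26) rose. Of 18 inhibitors and brakes of the cycle 8 fell, led by Pkmyt1 (-0.996), Cdkn1a or p21 (-0.91), Ccng2 (-0.77) and Cdkn2c (-0.73), and 5 rose, led by Cdkn2b (1.63), Gadd45a (1.26), Cdkn2a (1.01) and Trp53 (0.31). The filter on low counts was passed by 17 inhibitors at 4 weeks and by 18 at 16 weeks. An inhibitor that failed at 4 weeks thus entered the age test through the adult mice. Wee1, the kinase that holds back Cdk1, did not pass (-0.13, adjusted p = 0.131). Of 16 E2F, pocket protein and MuvB factors 6 fell, led by Rbl1 (-1.43), E2f7 (-0.72), Lin9 (-0.49) and Lin54 (-0.40), Lin37 rose (0.56), and Mybl2 did not pass (-0.53, adjusted p = 0.104). Ccnd1 had 28.1 CPM (13.4 to 52.9) in the median mouse of 4 weeks and 16.0 CPM (6.0 to 52.5) in that of 16 weeks, and Cdkn1a 29.9 CPM (1.13 to 104) and 7.65 CPM (1.03 to 83.4).

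At 4 weeks 32 of 38 other mitosis genes were called rhythmic, led by Cdc25c (amplitude 1.77, peak 4.13 h), Hmmr (1.47, 3.88 h), Ckap2l (1.3, 4.24 h) and Kif2c (1.29, 3.94 h), and 5 of 7 cytokinesis genes and 12 of 33 replication genes were called, where 29.9% of all genes were. On the other lists the peaks were spread. Ccnd1 peaked at 6.9 h (amplitude 0.417), Ccne1 at 10.9 h (1.07), Wee1 at 13 h (1.36) and Cdkn1a at 21.7 h (1.89), within 4 of 10 G1 genes and 8 of 17 inhibitors called, and Mybl2 at 3.25 h (1.37), within 9 of 16 E2F and MuvB factors called. At 16 weeks 10 of 37 mitosis, 2 of 7 cytokinesis, 8 of 33 replication, 6 of 10 G1, 5 of 18 inhibitor and 9 of 16 E2F and MuvB genes were called, where 34.8% of all genes were. Ccnd1 (7.9 h, amplitude 0.893), Ccne1 (9.91 h, 1.32), Wee1 (12.6 h, 1.48) and Cdkn1a (21.9 h, 2.74) were among them. For a difference of rhythm between the ages edgeR called none of these 4 and 2 of all 122 list genes tested, Kif15 (adjusted p = 0.0252) and Ccnf (adjusted p = 0.0458), with 35 at an unadjusted p below 0.05. Of all genes tested 0.282% were called and 13.7% had an unadjusted p below 0.05. DESeq2 called 11, of which 7 were mitosis genes. Maternal diet gave no call on these lists at either age by edgeR or DESeq2, with 9 of 121 genes at an unadjusted p below 0.05 in edgeR at 4 weeks, against 9.42% of all genes, and 10 of 121 at 16 weeks, against 11.6%. For the interaction of diet and age edgeR called 0 and DESeq2 1 of 122 list genes.

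Among the cell type markers, a rhythm at 4 weeks was called for 1 of 12 macrophage (Cd14), 1 of 10 endothelial (Tek), 1 of 10 stellate (Pdgfrb) and 4 of 10 hepatocyte markers. It was also called for 1 of 9 erythroid, 1 of 10 neutrophil, 2 of 12 lymphocyte and 1 of 8 cholangiocyte markers. Of all genes tested 29.9% were called at this age. At 16 weeks a rhythm was called for 4 of 12 macrophage, 0 of 10 endothelial, 4 of 10 stellate and 3 of 10 hepatocyte markers. The same held for 1 of 8 erythroid, 3 of 6 neutrophil, 3 of 12 lymphocyte and 3 of 8 cholangiocyte markers, against 34.8% of all genes. In total edgeR called 12 of 81 markers at 4 weeks and 21 of 76 at 16 weeks, and DESeq2 called 15 and 21. Their part in the rhythm of the members was not tested. The adult mice with the highest mitotic sums had macrophage, endothelial, stellate, erythroid, neutrophil, lymphocyte and cholangiocyte sums within the range of the other 34. The Ctr mouse of ZT5 had, however, the highest macrophage, endothelial and stellate sums of the 18 adult Ctr mice, at 523, 264 and 410 CPM, where the medians of the other 34 adults were 399, 202 and 254 CPM. The HFD mouse of ZT9 had 359, 204 and 382 CPM. Its lymphocyte sum of 12.0 CPM was the highest of the 18 adult HFD mice, where the other 34 adults had a median of 6.73 CPM. The part of these cells in the high mitotic sums was not tested. The HFD mouse of ZT9 had a hepatocyte sum of 141000 CPM, above the highest of 138000 CPM in the others. All 3 adult HFD mice of ZT9 deviated from the mean of their age with GC content across genes, with Spearman correlations of -0.486 for this mouse and -0.303 and -0.329 for the others, and against the mean of its own group this mouse had -0.134.

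Within an age, mice differed in their proliferation genes beyond diet and time. After the mean of each diet and time was taken out, pairs of mitotic genes had a median Pearson r of 0.428 across the 34 mice of 4 weeks and 0.45 across the 36 of 16 weeks. Pairs of replication genes had 0.211 and 0.189, and pairs of a mitotic and a replication gene 0.268 and 0.0962. The median r with the mitotic genes was -0.0289 and 0.0329 for Mcm10 and 0.0725 and 0.0921 for Tk1. These are descriptions of mice that share groups, library depth and composition, and low counts lower any r. The genes outside the set most like its mean deviation, among 12279 compared at 4 weeks, were Cdca8 (r = 0.837), Lig1 (0.816), Ckap2 (0.81), Hmmr (0.806), Ckap2l (0.802), Pclaf, Tacc3, Cdca3, Racgap1 and Kntc1 (0.717). At 16 weeks, among 12139, they included Ncapg2 (0.745), Itgb3 (0.744), Lig1 (0.741), Degs1 (0.729), Ttyh1 (0.722), Lpl, Abhd2, Rgs4 and Lsp1 (0.706). All of those named at 4 weeks are genes of replication or mitosis, which holds for Ncapg2 and Lig1 of those named at 16 weeks.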

How the data were processed

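Per the labels and the study's methods, poly(A) mRNA of RIN above 8.0 was made into NEBNext Ultra libraries, and the authors aligned reads to GRCm38/mm10 and deposited raw counts per gene, not normalized, as 1 table per age. HISAT2 2.0.5 and featureCounts 1.5.0-p3 are named in the submitters' processing notes, and the strand setting is not given in the sources used here. Groups came from the labels, and 2 columns that match no sample were not used. Libraries held 14758382 to 20100545 counts. Replicates are separate mice.

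Counts were scaled with TMM and tested with edgeR 4.0.16 (R 4.3.3), by quasi-likelihood F tests with Benjamini-Hochberg adjustment over all genes tested and a threshold of 0.05. A gene was kept where 50% or more of the mice of each diet had a nonzero count, within an age for diet and rhythm and over both ages for age and its interactions. Rhythm was a cosinor term with a period of 24 h. Levels are CPM from TMM-scaled libraries. DESeq2 1.42.0, other scalings and filters, a replicate block, a GC covariate and leaving out replicates or times were the alternatives. Figures were drawn with matplotlib 3.10.9, and fits were tested on simulated data. All 44 members were named by role, with full values for 15 of them and for those with the lowest p or largest change in each test, and up to 4 called genes a direction in each other list. Of the other lists, 6 genes were not found by symbol. The members and lists were chosen with earlier results of these data known. One gene among those most like the members at 16 weeks is not reported here.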

Additional observations from a re-analysis of the deposited data

Results flagged for a closer look

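Among the members, Rrm2 and Cdc6 had a 24 h rhythm that differed between 4 and 16 weeks in the interaction test of edgeR (adjusted p = 0.0184 for Rrm2 and 0.0461 for Cdc6). For Rrm2 the amplitude was 0.138 on the log2 scale at 4 weeks and 0.599 at 16 weeks. For Cdc6 the peak was fitted at 1.58 h with an amplitude of 0.61 at 4 weeks and at 12.1 h with 0.87 at 16 weeks. At 4 weeks neither gene was called rhythmic, and Cdc6 was low, with medians of 0.456 and 0.181 CPM at 4 and 16 weeks. Both calls of the interaction were lost when the replicates of any one number were left out. That of Cdc6 was also lost without the mouse of the conflicting age field and without the pair of adult mice with the highest mitotic sums, and that of Rrm2 was kept in both.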

How the results depend on the processing

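No member called for age changed its direction under any alternative run, and directions in the other tests were not compared. The number of members called for age stayed between 35 and 40 over 13 alternatives, 35 being the count with a mean of at least 1 CPM, and for rhythm at 4 weeks between 25 and 32 over 19. No member was called for diet at 16 weeks, for the interaction of diet and age or of diet and rhythm under any alternative run for them, and at 4 weeks 1 (Cdc20) was called for diet with no filter on low counts. For rhythm at 16 weeks, where 14 were called, leaving out a replicate gave 7 to 8, the GC slope from the age mean 9, leaving out ZT9 or ZT13 8 or 9, library totals alone 15 and DESeq2 16. For the interaction of rhythm and age, with 2 called, no filter gave 4, DESeq2 4 and the GC slope as covariate 5. A mean of at least 1 CPM, the replicate block, ZT as a factor, the GC slope from the age mean and leaving out ZT1, ZT21 or the mouse with the conflicting age field each gave 1. Leaving out ZT5, ZT9, ZT13 or any one replicate gave 0, and leaving out the pair of adult mice with the highest mitotic sums gave 3. The cause was not tested, but leaving out mice or times leaves fewer samples. The GC slope from the age mean and the leaving out of times and of that pair were chosen after seeing the data. Same-numbered mice of the diets had a median r of 0.0522 over 34 pairs, 11 of them over 0.1. Mice with other numbers had a median r of -0.00432 over 68 pairs, 12 of them over 0.1. The replicate block was used only as an alternative, with 40 members for age and 13 for rhythm at 16 weeks, without Ccnb1. Over all genes, calls went from 1 to between 0 and 251 for diet at 4 weeks, from 21 to between 0 and 132 at 16 weeks, from 31 to between 0 and 356 for diet and age, and from 49 to between 0 and 671 for rhythm and age. Rhythm calls went from 5014 to between 2281 and 6427 at 4 weeks and from 6067 to between 3730 and 6433 at 16 weeks, and those differing by diet went from 0 to at most 20 at 4 weeks and 62 at 16 weeks.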
